A study of Homo sapiens with 33 samples.

Results

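The cytosolic ribosomal protein genes encode the proteins that, with ribosomal RNA, build the small (40S) and large (60S) subunits of the ribosome. Members were all genes in the RNA-seq table with an RPL, RPS or RPLP name of the standard form, or named RPSA, that lie on chromosomes 1 to 22 and reach a mean of at least 10 RPM (reads on the gene in reads-per-million units of the library) over all libraries. This left 75 of 35805 genes, of which 31 encode small subunit and 44 large subunit proteins. In all 76 rows met the rule, because the name RPL41 occurred on chromosomes 7 and 12, and the chromosome 12 row with the higher level was kept. The X-linked RPL10, RPL36A and RPL39 fell outside by their position, and RPL10L and RPL3L by their low level.

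Cells need the ribosomal proteins in equal amounts, and the mRNAs of nearly all of them begin with a C followed by a run of pyrimidines, the terminal oligopyrimidine (TOP) motif. TOP mRNAs also include those of several translation factors, and growth signals acting through mTOR control how strongly these mRNAs are translated. Pluripotent cells divide fast and devote a large share of their mRNA to this group, so that its level also bears on how any other gene reads out as a share of a library.

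The study removed EZH2, the enzyme that places H3K27me3 in Polycomb repressive complex 2, from H9 human embryonic stem cells (ESCs). RNA-seq covered 4 genotypes with 3 libraries each: EZH2+/+ parental cells (WT), an EZH2-/+ line made by CRISPR/Cas9 (Het), EZH2-/- cells (Null) and EZH2-/- cells in which a transgene was induced with doxycycline (Null+EZH2). The Null cells came from re-targeting an EZH2-/+ line that carried the piggyBac transgene, and they were kept without doxycycline. Targeted lines were clonal, cells grew on mouse feeder cells, and RNA came from cells sorted for the surface marker SSEA4. ChIP-seq gave H3K4me3, H3K27ac, H3K4me1, H3K27me3 and input in the same genotypes, and EZH2 in WT alone.

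The sequences below show the start sites of members that the RNA results turn on. RefSeq promoter entries (GRCh38.p14) covered 59 of the 75 members, and the other 16, RPL39L among them, are not shown. Each sequence has 30 bases around an annotated start site, 5′ to 3′ on the strand of the gene, and capitals mark the unbroken run of C and T that covers the start, where that start lies in one of at least 5 bases. RPS25 is at chr11:119018329-119018358 (minus strand), RPS27 at chr1:153990747-153990776 (plus), RPL13A at chr19:49487593-49487622 (plus), RPLP0 at chr12:120201097-120201126 (minus) and RPL3 at chr22:39319609-39319638 (minus). These 5 members are shown because they were among those furthest below WT in Null. RPS26, at chr12:56041903-56041932 (plus), and RPS27L, at chr15:63157463-63157492 (minus), are shown because they departed from the rest of the set.
RPS25: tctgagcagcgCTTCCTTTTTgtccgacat
RPS27: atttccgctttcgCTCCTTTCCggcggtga
RPL13A: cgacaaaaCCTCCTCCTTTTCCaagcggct
RPLP0: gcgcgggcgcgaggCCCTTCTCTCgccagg
RPL3: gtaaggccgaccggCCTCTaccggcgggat
RPS26: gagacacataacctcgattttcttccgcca
RPS27L: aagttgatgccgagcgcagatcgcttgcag

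Of the 59 members with an entry, 43 (72.9%) had a start site that was a C followed directly by at least 4 pyrimidines, against 5.14% of all 27305 genes with an entry. The motif was searched on the strand of the gene alone. The pyrimidine stretch counted from the start site had a median length of 7 bases in members and 0 in all genes, and the longest was 16 bases at RPL7A. RPL3 starts with a C, but only 4 pyrimidines run from the start, so that it is not among the 43. RPS26 has a pyrimidine stretch a few bases after its annotated start, whereas the start base of RPS27L lies in no such run. When the C and 4 pyrimidines were allowed to lie from 10 bases before to 15 after the start, 54 members had the motif, against 38.4% of all genes. A match here is a property of the letters only. Annotated starts can miss the main start of transcription by a few bases.

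Libraries held 25.02 to 56.85 M reads, of which 61.6% to 67.7% fell on genes. EZH2 itself, which checks the labels, was 68.6, 63.3 and 59.5 RPM in WT, 55.4, 52.3 and 45.7 in Het, 11.5, 8.65 and 9.68 in Null, and 271, 385 and 256 in Null+EZH2 (libraries 1, 2 and 3). The summed level of 8 ESC markers was 2305 to 2950 RPM in WT and 3484 to 3929 RPM in Null, so that all of these libraries expressed them. Limma called 5 of them higher and 1 lower in Null than in WT, where 12.6% and 18.8% of all genes were called. Of the other cell types, 5 endoderm markers summed to 19.4 to 32.6 RPM in WT, 76.7 to 156 in Null and 15.4 to 31.8 in Null+EZH2. Their sum in Het, 11.5 to 94.8 RPM, reached into the Null range. In WT, Null and Null+EZH2 the 6 mesoderm markers summed to 46.5 to 70.1, 119 to 160 and 68.7 to 119 RPM. The 5 fibroblast markers summed to 286 to 360, 287 to 523 and 232 to 309 RPM, so that WT and Null overlapped. By log2 fold change between Null and WT, 5 mesoderm markers were higher and 1 lower, and 3 fibroblast markers were higher and 2 lower. In WT and Null the 4 neuroectoderm markers summed to 232 to 351 and 362 to 403 RPM, although limma called 1 of them higher and 2 lower in Null, and the 5 trophectoderm and amnion markers to 5.86 to 10.2 and 7.53 to 44.98 RPM. No marker gene was at 0 in all libraries, and the part of these cells in the results below was not tested. In bulk RNA, fewer cells of a type and less RNA per cell cannot be told apart.

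The 75 members together took 3.64% to 7.23% of all reads. Their summed level was 47260, 51046 and 59352 RPM in WT (52552 ± 6185, SD, n = 3), 43027, 44886 and 72294 in Het (53402 ± 16387), 36409, 39305 and 51563 in Null (42425 ± 8045), and 40752, 39719 and 66085 in Null+EZH2 (48852 ± 14933). Library 3 was the highest of every genotype, and libraries 1 and 2 of Null lay below all WT libraries, while library 3 of Null lay within the WT range. The small subunit sum was 19135 to 24149 RPM in WT and 14927 to 21078 RPM in Null. The large subunit sum was 28125 to 35203 and 21482 to 30484 RPM, so that both subunits had the same order.

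**Figure D1:**
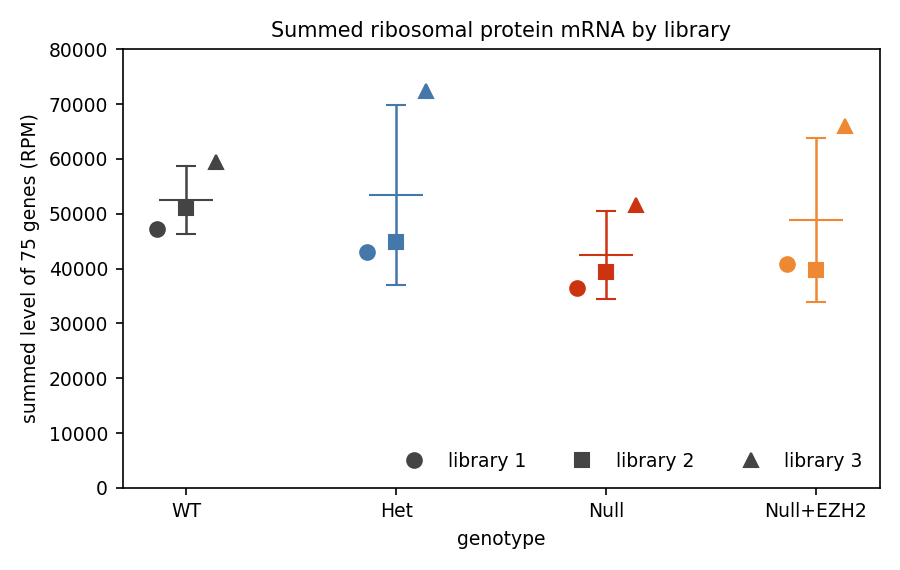
Summed level of the 75 cytosolic ribosomal protein genes (RPM, y axis from 0) in each of the 12 libraries, by genotype, with a marker shape for each library number and a bar at the mean of each genotype with its SD (n = 3). Library 3 is the highest of every genotype, from 51563 RPM in Null to 72294 RPM in Het.

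Because library 3 stood apart in all genotypes, it is described before the comparisons. Relative to the mean of libraries 1 and 2, the median member was higher in library 3 by 0.29 on the log2 scale in WT, 0.75 in Het, 0.42 in Null and 0.77 in Null+EZH2. In 73 of 75 members (97.3%) library 3 was the highest library of every genotype, against 11.6% of all genes tested and 21.6% of the 1090 other genes with at least 100 RPM. The exceptions were RPL39L, which was highest in library 3 in 1 genotype, and RPS26, in 3. Other genes with short transcripts differed in the same direction, with smaller medians than the members except in WT. Of 99 other genes of at least 100 RPM with a transcript under 1000 bases, 58.6% were highest in library 3 of every genotype, with medians of 0.32, 0.28, 0.40 and 0.49.

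The difference was not shared by all genes of ribosome production. In library 3, the 77 mitochondrial ribosomal protein genes were higher by a median of 0.24, 0.08, 0.41 and 0.33 on the log2 scale in WT, Het, Null and Null+EZH2. The 38 ribosome biogenesis genes, which include RNA polymerase I subunits, processing and assembly factors, and the transcription factors MYC and MYCN, had medians of 0.07, -0.57, 0.13 and -0.19. A set of 18 other genes with TOP mRNAs (the TOP set) had medians of 0.18, 0.51, 0.31 and 0.41. Most of these encode translation factors, but NPM1, NAP1L1, HNRNPA1, TPT1 and GNB2L1 (RACK1) are among them. All genes tested had medians of -0.01, -0.08, 0.07 and -0.07. The paper describes the libraries of a line as biological replicates, and what a shared number means across lines is not given in the sources used here.

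Libraries with the same number deviated together across genotypes, although numbers 1 and 2 were not always told apart. A fit that takes the number as a block (the block fit) is therefore given beside the fit without it wherever the call differs. The pairing by number that it uses is an assumption. The spread between libraries of a genotype, of which the block removes only the part shared across genotypes, was large for these genes. The median member had an SD of 0.19, 0.44, 0.25 and 0.44 on the log2 scale in WT, Het, Null and Null+EZH2, against 0.16, 0.23, 0.17 and 0.20 for the 1090 other genes of at least 100 RPM. The p-values below measure only the spread between these libraries.

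Members moved together from library to library. Over the 12 libraries, the correlation of a member with the median of the other members had a median Pearson r of 0.97, and it was over 0.9 in 60 of 75 members, highest in RPL31 (r = 0.997). These points share libraries, depth and the library number, so r is a description of them. It was under 0.5 in RPL39L (r = -0.22), RPS26 (r = 0.01) and RPL8 (r = 0.37). RPS15 (0.61), RPS27L (0.66) and RPL36 (0.67) came next.

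**Figure D2:**
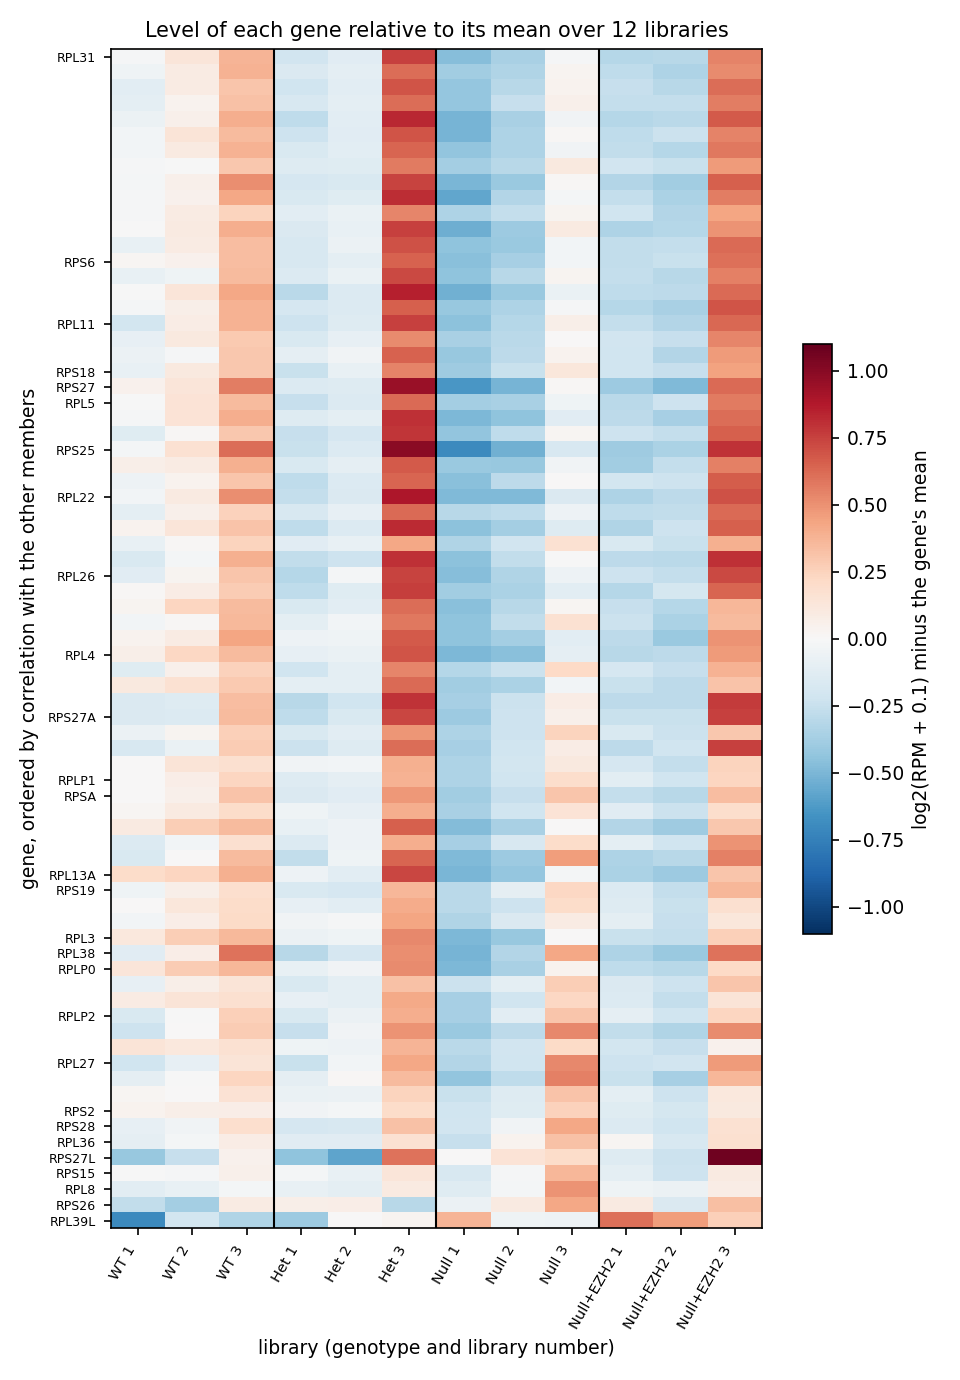
Log2 level of each of the 75 members in each of the 12 libraries relative to that member's own mean over all libraries (colour, from lower in blue to higher in red), with members as rows and libraries as columns, and with the names of some members beside their rows. The columns of library 3 stand out in Het, where 74 members are above their own mean, and in Null+EZH2, where all 75 are, while libraries 1 and 2 of Null are the lowest columns.

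Per kilobase of the annotated main transcript, members ranged from 5.39 RPM per kb in RPS27L to 1938 RPM per kb in RPS18, with a median of 809. The fewest reads on a member in any library were 939, so that counting error was small beside the spread between libraries. Their transcripts were short, with a median of 785 bases against 2700 bases (2699.5) for all genes tested. Of the 75 members, 37 overlap another listed gene, reads were counted without strand, and many members have near-identical processed copies elsewhere in the genome, so that reads of such neighbours and copies cannot be told apart from the members' own. The 3 listed ribosomal protein pseudogenes together reached only 125 to 241 RPM.

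In Null relative to WT, the members were lower in most cases, and no member passed the test without the block. The median log2 fold change was -0.30, against -0.13 over all genes tested, with 67 members lower and 8 higher. By limma at an adjusted p under 0.05, 0 members were called in either direction, where 12.6% of all genes were called higher and 18.8% lower. Without adjustment, 1 was higher (RPL39L) and 5 were lower, among them RPL3 and RPLP0, at p under 0.05. At that bound 3486 of the 20608 genes tested were higher and 5284 lower. The 3 Null libraries were all below the 3 WT libraries in 20 members, 9 of the small and 11 of the large subunit, where 29.2% of all genes had that order. RPL39L was the only 1 with all Null libraries above all WT libraries, an order that 20.6% of all genes had.

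Within a library number the difference was more even. The median member was lower in Null than in WT by 0.35 in libraries 1 and 2 and by 0.26 in library 3 on the log2 scale. In all 3 numbers 55 of 75 members (73.3%) were lower, against 43.1% of all genes tested and 38.3% of the other genes of at least 100 RPM. In the block fit limma called 32 members lower, 12 of the small and 20 of the large subunit, and 1 higher, where 28% of all genes were lower and 17.3% higher.

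The 32 members depended on the scaling. RPM sums to a fixed total, and scaling by median ratios moved the median of all genes in Null relative to WT from -0.13 to -0.01 and that of the members from -0.30 to -0.17. With the block and this scaling, 7 members were called lower, all among the 32, with RPL3, RPLP0, RPS25 and RPS27 as examples. In that fit 21.4% of all genes were lower, and RPL39L, RPL8 and RPS26 were called higher, where 23.1% of all genes were. With RPM scaled to the genes outside the set, the block fit called 27 members lower and 1 higher, where 27% of all genes were lower and 18.5% higher. In libraries 1 and 2 alone, 53 members were called lower, all 32 of the block fit among them, against 25.6% of all genes, and 3 were higher (RPL39L, RPS26 and RPS27L), against 15.2%. These last 3 fits were chosen after seeing the data. Without the block, the 6 libraries of WT and Null alone gave 15 members lower and 1 higher, where 20.8% and 15.1% of all genes were called. Leaving out library 3 of Null gave 2 lower and 0 higher (all genes 16.4% and 9.68%), and median ratio scaling gave 0 lower and 1 higher (13.7% and 16.4%).

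**Figure D3:**
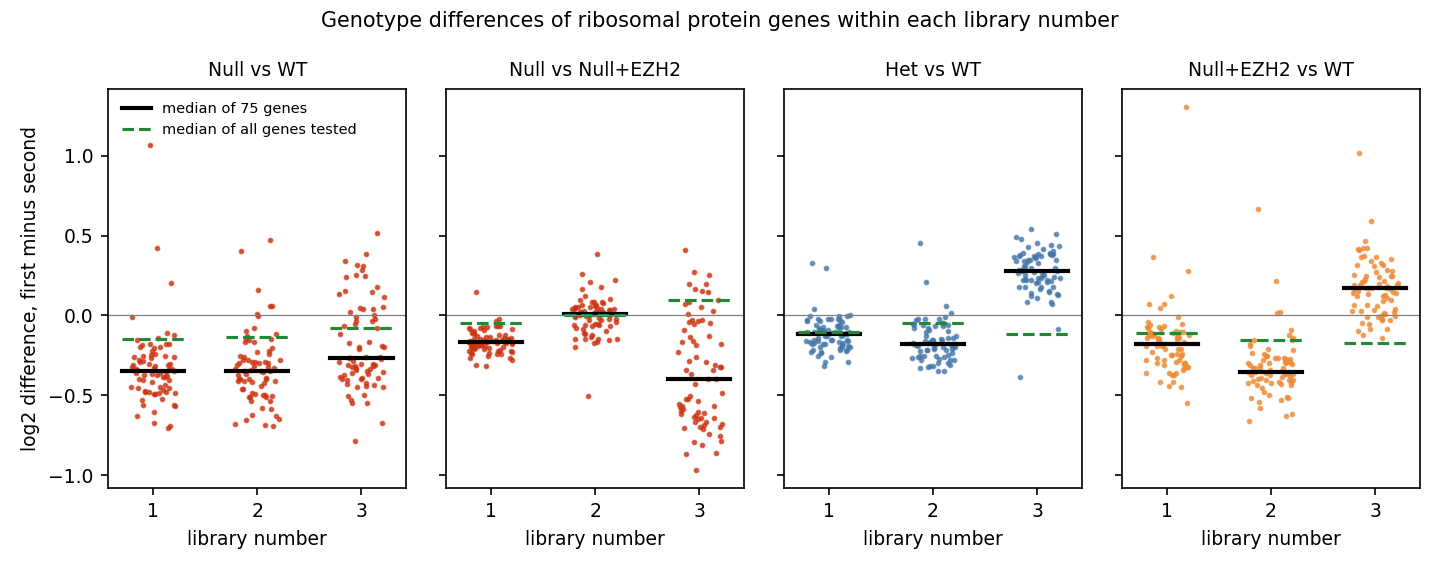
Log2 difference of each of the 75 members within library numbers 1, 2 and 3 (points), with solid bars at the member median and dashed bars at the median of all genes tested, for the 4 comparisons. Null relative to WT is below 0 in all 3 numbers (medians -0.35, -0.35 and -0.26), while Het and Null+EZH2 relative to WT are below 0 in numbers 1 and 2 and above 0 in number 3.

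RPS25, a small subunit protein that some viral internal ribosome entry sites require, had the most negative difference. Its level was 496, 565 and 771 RPM in WT and 310, 350 and 448 RPM in Null, and the groups did not overlap. In Het it was 425, 456 and 1001 RPM, and in Null+EZH2 386, 396 and 874 RPM, so that library 3 lay far above the others in both. The log2 fold change between Null and WT was -0.72 ± 0.36 (SE), with a limma adjusted p of 0.145, and 0.00366 with the block. RPS27, a zinc finger protein of the small subunit, was 422, 448 and 602 RPM in WT and 261, 286 and 412 RPM in Null. It did not overlap either (log2 fold change -0.63 ± 0.34, limma adjusted p = 0.175, and 0.00347 with the block).

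RPL3, which lies near the peptidyl transferase centre, was 1847, 2060 and 2187 RPM in WT and 1215, 1283 and 1710 RPM in Null (log2 fold change -0.55 ± 0.21, limma adjusted p = 0.0683, and 0.00214 with the block). Its Het libraries, at 1637, 1651 and 2472 RPM, and its Null+EZH2 libraries, at 1438, 1424 and 2045 RPM, lay between or around these. RPL4, a large subunit protein lining the exit tunnel, was 1514, 1694 and 1840 RPM in WT and 1027, 1053 and 1349 RPM in Null. Its log2 fold change was -0.56 ± 0.25 (limma adjusted p = 0.105, and 0.00502 with the block). All Null libraries of RPL3 and of RPL4 were below all WT libraries. RPL13A, also of the large subunit, was 1336, 1362 and 1517 RPM in WT and 818, 865 and 1144 RPM in Null (log2 fold change -0.59 ± 0.25, limma adjusted p = 0.0889, and 0.00372 with the block).

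RPLP0, RPLP1 and RPLP2 form the acidic stalk that recruits translation factors to the large subunit, and they differed in size of change. RPLP0 was 1574, 1735 and 1844 RPM in WT and 1018, 1122 and 1472 RPM in Null (log2 fold change -0.53 ± 0.21, limma adjusted p = 0.0756, and 0.00254 with the block). RPLP1 was 701, 735 and 819 RPM in WT and 552, 598 and 799 RPM in Null, with overlap (-0.23 ± 0.19, limma adjusted p = 0.393, and 0.0809 with the block). RPLP2 had -0.09 ± 0.21. Whether the 3 stalk genes differ from each other was not tested.

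Members with known roles beyond the ribosome were also mixed. RPS6, the target of S6 kinase, was 1301, 1317 and 1616 RPM in WT and 932, 992 and 1250 RPM in Null (-0.42 ± 0.27, limma adjusted p = 0.250, and 0.0208 with the block). RPL5 and RPL11 join the 5S ribosomal RNA and bind MDM2, the regulator of p53. RPL5 had a log2 fold change of -0.42 ± 0.26 (limma adjusted p = 0.237, and 0.0238 with the block). RPL11 had -0.32 ± 0.30 (limma adjusted p = 0.440, and 0.0655 with the block). RPSA, also known as the laminin receptor precursor, had -0.24 ± 0.24, RPS27A, made as a fusion with ubiquitin, -0.20 ± 0.31, and RPS19, a gene mutated in Diamond-Blackfan anaemia, -0.13 ± 0.21. RPS2, high in WT at 1432, 1460 and 1468 RPM, was 1194, 1267 and 1661 RPM in Null, with overlap.

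Null relative to Null+EZH2, the comparison of the same cells without and with the induced transgene, gave no call. The median log2 fold change of members was -0.20, against 0.02 over all genes tested, with 65 members lower and 10 higher. By limma 0 members were called higher and 0 lower, with and without the block, also at an unadjusted p under 0.05 without it. Of all genes, 2.63% were called higher and 0.524% lower, or 6.19% and 3.21% with the block. At the unadjusted bound, 2224 of the 20608 genes tested were higher and 1236 lower. No member had groups without overlap, against 13.5% of genes for higher and 9.7% for lower.

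The difference varied with the libraries used. Within library numbers 1, 2 and 3 the median member differed by -0.17, 0.01 and -0.40, and 74, 33 and 61 members were lower in Null. Leaving out each library gave median member differences from -0.34 without library 2 of Null+EZH2 to 0.05 without library 3 of Null+EZH2, with -0.33 without library 3 of Null. Libraries 1 and 2 alone gave -0.084. The members furthest down were RPS25 (-0.49 ± 0.36, limma adjusted p = 0.537, and 0.0780 with the block), RPL22 (-0.40 ± 0.32) and RPL26 (-0.36 ± 0.29). Those furthest up were RPS15 (0.14 ± 0.15), RPS28 (0.12 ± 0.19) and RPL8 (0.12 ± 0.16), and each of these 3 turned below 0 when library 3 of Null was left out. With libraries 1 and 2 of each genotype RPL8 was at -0.021, RPS15 at 0.075 and RPS28 at 0.057.

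Het relative to WT gave 0 calls in either direction by limma, where 0.18% of all genes were higher and 0.966% lower. Without adjustment it gave 0 also at p under 0.05, where 509 of the 20608 genes tested were higher and 1672 lower. The block fit gave 0 as well, where it called 0.718% and 2.16% of all genes. No member had groups without overlap, against 3.17% of all genes for higher and 11.9% for lower. The median member differed by -0.01, against -0.09 over all genes, with 35 members higher and 40 lower. This balance was a sum of opposite differences within library numbers. The median member was lower in Het by 0.12 and 0.18 in numbers 1 and 2, with 71 members lower in each, and higher by 0.28 in number 3, with 2 members lower. Only 1 member (1.33%), RPL38, was lower in all 3 numbers, against 26.8% of all genes.

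Null+EZH2 relative to WT gave 1 member called higher, RPL39L, and 0 lower, where 3.4% of all genes were called higher and 6.9% lower. Without adjustment the counts were also 1 and 0 at p under 0.05, where 1532 of the 20608 genes tested were higher and 3702 lower. The median member differed by -0.13, against -0.15 over all genes, with 12 members higher and 63 lower. Within library numbers 1, 2 and 3 the medians were -0.18, -0.35 and 0.17. With the block, 3 members were called lower, among them RPL13A and RPLP0, and RPL39L was called higher, where the block fit called 16.1% of all genes lower and 6.26% higher. The limma adjusted p with the block was 0.0391 for RPL13A and 0.0296 for RPLP0, against 0.316 and 0.289 without it. Libraries 1 and 2 alone gave 28 members lower and 1 higher, where 15.6% and 7.97% of all genes were called. The block with scaling to genes outside the set gave 1 lower and 1 higher, where 14.1% and 6.99% were. The block with median ratio scaling gave 0 lower and 1 higher, where 1868 and 2147 of 20591 genes were called. Median ratio scaling moved the median member from -0.13 to 0.02 and the median of all genes from -0.15 to -0.01. The groups did not overlap in 1 member lower and 1 higher (RPL39L), against 22.4% and 9.77% of all genes.

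RPL39L, the paralogue of the X-linked RPL39 that is known from testis ribosomes, ran against the set. It was 38.9, 54.8 and 50.1 RPM in WT, 47.7, 63.4 and 64.7 in Het, 81.7, 61.2 and 60.9 in Null, and 96.3, 86.9 and 75.7 in Null+EZH2. The libraries of Null and of Null+EZH2 all lay above those of WT, and the Null and Null+EZH2 libraries overlapped. Between Null+EZH2 and WT the log2 fold change was 0.85 ± 0.18 (limma adjusted p = 0.0110, and 0.00603 with the block), and between Null and WT 0.50 ± 0.18 (limma adjusted p = 0.0501, and 0.0349 with the block). The call between Null+EZH2 and WT was lost without library 1 of WT, where the log2 fold change was 0.71 (limma adjusted p = 0.0599). RPL39 itself, outside the set, was 308, 353 and 443 RPM in WT and 482, 526 and 672 RPM in Null (log2 fold change 0.61 ± 0.30, limma adjusted p = 0.140, and 0.00383 with the block).

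RPS27L, the longer-transcript paralogue of RPS27 and a known p53 target, also differed from its partner. It was 23.3, 26.1 and 32.3 RPM in WT and 31.3, 34.6 and 35.9 RPM in Null. The groups overlapped, and the log2 fold change of 0.33 ± 0.34 did not pass (limma adjusted p = 0.494, and 0.228 with the block). In Null+EZH2 it was 28.3, 26.5 and 65.6 RPM, with library 3 far above the others. Per kilobase it stood at 5.39 RPM against 1226 RPM per kb for RPS27, over an annotated main transcript of 6110 bases, which reads of shorter forms would not fill.

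RPS26, at the mRNA exit of the small subunit, was 112.5, 104.5 and 144 RPM in WT, 141.5, 143 and 110.1 in Het, 129.7, 145 and 182 in Null, and 145, 121 and 171 in Null+EZH2. Its Het library 3 was the lowest of that genotype, whereas library 3 of Het was the highest in the other 74 members. The log2 fold change between Null and WT was 0.34 ± 0.18 (limma adjusted p = 0.180, and 0.106 with the block). RPL8, a large subunit protein, was 959, 982 and 1023 RPM in WT and 951, 1022 and 1464 RPM in Null, with overlap, and its log2 fold change was 0.19 ± 0.16.

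Of 11 ribosomal protein genes tested that the rule left out, 7 were higher and 4 lower in Null than in WT (median 0.18). Limma called 2 of the 11 higher and 0 lower, where 12.6% of all genes were called higher and 18.8% lower, RPL10 (0.65, adjusted p = 0.0225) and RPL22L1 (0.63, adjusted p = 0.0426). RPL10 was 793, 861 and 987 RPM in WT and 1194, 1304 and 1686 RPM in Null, with no overlap. All 4 X-linked genes were higher in mean level in Null, and with the block RPL10, RPS4X, RPL39, RPL36A and RPL22L1 were called higher, where the block fit called 17.3% of all genes. In Null+EZH2 relative to WT the median of the 11 was also 0.18. Limma called 1 of them higher there, or 5 with the block, against 3.4% and 6.26% of all genes. Null relative to Null+EZH2 had a median of -0.03 and 0 calls, with and without the block. Of all genes, 2.63% were higher and 0.524% lower there, or 6.19% and 3.21% with the block. The difference between X-linked and autosomal genes was not tested.

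Other gene groups of protein synthesis were counted for Null relative to WT, where limma called 12.6% of all genes higher and 18.8% lower, and 17.3% and 28.0% with the block. Of the 18 genes of the TOP set, limma called 0 higher and 4 lower (median -0.39), and 1 higher and 12 lower with the block. GNB2L1 is in this set and also among the ribosomal protein genes that the rule left out. EEF1A1, which brings aminoacyl-tRNA to the ribosome, was 6667, 7093 and 7340 RPM in WT and 4082, 4029 and 4746 RPM in Null (log2 fold change -0.72, limma adjusted p = 0.0243). EIF4B, a cofactor of the helicase EIF4A, also fell (-0.83, limma adjusted p = 0.00257). Of 38 ribosome biogenesis genes 12 were called higher and 0 lower (median 0.31), among them DKC1, the pseudouridine synthase dyskerin (1.21, limma adjusted p = 0.000436), and MYC (1.77, limma adjusted p = 0.00246). Of 77 mitochondrial ribosomal protein genes 11 were higher and 1 lower, and of 71 oxidative phosphorylation genes 4 were higher and 2 lower. With the block, 15 ribosome biogenesis genes were called higher and 0 lower, and 20 mitochondrial ribosomal protein genes higher and 6 lower. Of the oxidative phosphorylation genes the block fit called 9 higher and 12 lower. Null relative to Null+EZH2 gave 0 calls without the block in each of these sets, where 2.63% of all genes were higher and 0.524% lower. Its median was 0.13 for the biogenesis genes and -0.23 for the TOP set. In Null+EZH2 relative to WT these medians were 0.23 and -0.21. Limma called 1 biogenesis gene higher there and 0 of the TOP set, where 3.4% of all genes were higher and 6.9% lower.

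Base composition of the transcripts went with the differences between members. The GC content of the members' main transcripts ranged from 40.1% to 63.6%, with a median of 47.8% against 49.5% for all genes tested. Over the 75 members, the library 3 difference averaged over genotypes correlated with GC content at a Pearson r of -0.64 and a Spearman rho of -0.63. The Null against Null+EZH2 difference had r = 0.68 and rho = 0.64, and the Null against WT difference r = 0.34 and rho = 0.35. For 1087 other genes of at least 100 RPM these r were -0.09, 0.37 and 0.21. The points are genes of the same 12 libraries and no independent replicates, and the part of base composition in the comparisons was not tested.

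When the members were split by GC content into 3 bins of 25, the median difference between Null and Null+EZH2 was -0.27 in the lowest, -0.24 in the middle and -0.05 in the highest bin. Between Null and WT it was -0.41, -0.32 and -0.21, so that it was below 0 in each bin. The library 3 difference in Null+EZH2 was 0.89, 0.84 and 0.47. The 43 members with a C and 4 pyrimidines at the annotated start and the 16 with another start had medians of -0.30 and -0.32 between Null and WT.

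The promoters of the members were described at the window of 5 kb around a start site that had the most H3K4me3 in WT, 1 window per gene from 630 at the 75 members. This choice favours WT for H3K4me3. Each histone and input value is an average made by the authors, so that there is no error between replicates and no test. The lowest values of these columns have the spacing of a geometric mean of 2 libraries. The paper describes averages over more biological replicates, and the columns do not settle the difference. Read as 2 libraries, WT H3K4me3 was shallow (3.43 M reads each, against 10.3 to 17.4 M in the other genotypes).

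H3K4me3, the mark of active start sites, had a median of 13.3 RPM in WT, 19.1 in Het, 17.0 in Null and 15.0 in Null+EZH2 at the members, against 4.95, 6.71, 5.33 and 5.58 over all gene names. All 75 members reached at least 2 times the input value in each genotype. The other genes of at least 100 RPM had medians of 13.3, 19.3, 15.8 and 14.6 RPM, close to the members. H3K27ac had medians of 2.95, 3.40, 3.67 and 4.11 RPM at the members, and H3K4me1 3.44, 3.68, 3.44 and 3.10. The lowest H3K4me3 in WT was 5.73 RPM at RPS24, then 7.57 at RPS15 and 7.75 at RPS20. RPS24 had 15.7 RPM in Het, 16.8 in Null and 15.1 in Null+EZH2.

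At the members, the median of H3K27me3 was near that of input in every genotype. It was 1.36, 1.22, 1.52 and 1.15 RPM in WT, Het, Null and Null+EZH2, with input at 1.25, 1.39, 1.26 and 1.36. In the same order, 7, 3, 7 and 6 members reached at least 2 times input, against 30.7%, 26.1%, 6.48% and 24.2% of all gene names. The WT value exceeded input in 47 of 75 members, and the Null value in 56, against 61.2% and 20.7% of all gene names. Between Null and WT the median change was 0.16 on the log2 scale at the members and -0.85 over all gene names. It fell by at least 1 in 3 members and rose by at least 1 in 9, against 45.2% and 3.86% of all gene names. RPM is a share of the reads of a column, and the paper reports loss of H3K27me3 in Null. A higher RPM in Null is therefore no measure of more of the mark. EZH2 in WT had a median of 0.719 RPM at the members and 0.655 at the other genes of at least 100 RPM. Over all gene names its median was 0.322 RPM. EZH2 exceeded input in 3 of 75 members, against 6.64% of all gene names. The paper describes crosslinked ChIP for EZH2, but native ChIP for the histone marks, and takes its input from the native chromatin. The EZH2 and input columns are therefore not matched, and the count above input is no measure of EZH2 binding.

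The members with the most H3K27me3 in WT were RPL10A (3.28 RPM, with 2.41 in Null and 2.48 in Null+EZH2), RPL38 (3.26, 1.76 and 3.03) and RPL39L (3.23, 4.01 and 2.41). RPL39L, the only member with the RNA of all Null and all Null+EZH2 libraries above all WT libraries, had 1.66 RPM of H3K27me3 in Het. A link between its RNA and this mark was not tested. The changes between Null and WT ran from -1.43 at RPL19 to 1.81 at RPL9. By the same reading of the columns, these windows held 2.65 to 29.9 H3K27me3 reads per library in WT, so that the change of a single member rests on few reads.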

How the data were processed

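RNA-seq was measured in 12 libraries, 3 for each of 4 genotypes, and ChIP-seq in windows reaching 2.5 kb to both sides of each start. Per the submitters' notes and the study's methods, reads were trimmed with Trim Galore 0.4.0 and aligned to GRCh38 with TopHat2 2.0.12 (RNA) or Bowtie2 2.2.5 (ChIP). RNA reads were counted per gene in SeqMonk without strand, and ChIP reads were extended by 200 bp. The authors deposited log2 RPM for both. A gene without a read was deposited as 0.9 of a read and was set back to 0 here. The authors used DESeq2 on raw counts, which were not used here, and p-values here can differ for that reason.

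In R 4.3.3, limma 3.58.1 (lmFit and a trended eBayes) was fitted to log2(RPM + 0.1) of all libraries, a scale on which the change of low genes is understated. It took in 20608 of 35805 genes, those reaching 0.1 RPM on average. A gene was called where its p, adjusted by Benjamini-Hochberg over all of these, was under 0.05. The fit without the block was checked on simulated counts for Null against Null+EZH2, with 1 fixed spread and no effect of library number. It found 41.8% of the genes changed 1.5-fold and 98.5% of those changed 2-fold, with 12 false among 172 calls. A shift shared by a library number, as seen in the members, is not covered by this check. The study states no pairing of libraries. Same-numbered libraries of 2 genotypes deviated together (18 correlations of 0.11 to 0.56 over 20608 genes, against -0.49 to 0.24 for 36 other pairs), so they were treated as paired by number in a block fit given as an alternative. Deviations were taken from the genotype mean and cancel within a gene, which pushes other pairs down where same-numbered pairs are up. Numbers 1 and 2 were not always told apart. Null library 1 and Null+EZH2 library 2 had 0.21, against 0.19 for both libraries 2. WT library 1 had 0.56 with Het library 1 and 0.13 with Het library 2. The pairing is an assumption. Deposited RPM was used without a further factor in the first fit.

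The members and the gene lists were chosen with earlier results of these data known. Members named are the 5 of highest mean RPM, the 3 furthest up and down in each comparison, names ending in L with their partners, called members, 11 with known roles, and the promoters highest in H3K27me3 or lowest in H3K4me3. Some that this rule takes in are not reported here by name. Others were named after their values were seen, as departing from the set (RPS15, RPL36, RPL31 and the H3K27me3 extremes). Transcript length and GC content came from the main GENCODE transcript of each gene. Each histone and input column is an average made by the authors, read here from its lowest values as 2 libraries (the paper describes more replicates), and EZH2 as 1 library. Alternatives were another pseudocount (1 RPM), other filters on low genes, median ratio scaling, the block, fewer libraries and each library left out.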

Additional observations from a re-analysis of the deposited data

How the results depend on the processing

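The count of members called in Null relative to WT depended on the fit. RPL39L, at a limma adjusted p of 0.0501, made the count called higher 1 with a pseudocount of 1 RPM, a filter of 1 RPM, median ratio scaling, the replicate block by library number or only the 6 libraries of both groups. It was 3 with libraries 1 and 2 alone, 3 with the block and median ratio scaling, and 1 with the block and scaling to genes outside the set. The count called lower was 32 with the block, 15 with the 6 libraries only, 53 with libraries 1 and 2 alone, 7 with the block and median ratio scaling and 27 with the block and scaling to genes outside the set. Leaving out each library gave 0 to 2 lower, with 2 without library 3 of Null. In Null+EZH2 relative to WT, leaving out each library gave 0 to 1 higher (0 without library 1 of WT), and the count lower was 3 with the block, 28 with libraries 1 and 2 alone and 1 with the block and scaling to genes outside the set. The block changed no other call of a member. All other counts of members were the same under each alternative. The cause was not tested, except that the block and the smaller fits differ in the libraries and spread they use.

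Between Null and WT, the median log2 change at member promoters was 0.29 for H3K4me3 and 0.28 for H3K27ac. It was -0.0085 for H3K4me1 and 0.16 for H3K27me3. Relative to the median of all gene names these became 0.42, -0.061, -0.12 and 1.01, so that H3K27ac turned below 0. The value for H3K27me3 follows from a median of -0.85 over all gene names, and is no measure of more of the mark. With a pseudocount of 1 RPM, the change of H3K27ac was 0.23. The direction turned for some uncalled members, mostly when a library 3 was left out. Leaving out each library in turn, Null relative to Null+EZH2 ran from -0.068 to 0.24 for RPL8, -0.014 to 0.26 for RPS15, -0.061 to 0.26 for RPS28, -0.49 to 0.062 for RPS27 and -0.34 to 0.31 for RPS27L. With libraries 1 and 2 alone it was -0.021 for RPL8 and 0.26 for RPS27L. Het relative to WT ran from -0.082 to 0.25 for RPL27, -0.43 to 0.034 for RPL38, -0.40 to 0.15 for RPS27 and -0.30 to 0.29 for RPS27L. With libraries 1 and 2 alone it was -0.17 for RPS27L, and with median ratio scaling, with and without the block, it was 0.069 for RPS27.

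With 3 libraries per genotype, the median member stood up to 0.77 higher in library 3 on the log2 scale, and that spread enters the error of the fit without the block. ChIP averages gave no error between replicates.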

Other observations

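The second RPL41 row, on chromosome 7, had a mean of 257 RPM and was left out of the set. RPL10L and RPL3L, relatives of RPL10 and RPL3, had means of 0.0359 and 0.376 RPM over the 12 libraries. RPL22L1, the paralogue of RPL22, was 49.9, 41.3 and 66.4 RPM in WT, 72.2, 84.8 and 85.3 in Het, 74.4, 70.4 and 96.3 in Null, and 82.8, 85.9 and 134.6 in Null+EZH2, so that all libraries of the other 3 genotypes lay above those of WT. Its log2 fold change between Null+EZH2 and WT was 0.93 (limma adjusted p = 0.0172). RPL22 itself was 361, 395 and 527 RPM in WT and 264, 264 and 331 in Null, with no overlap (-0.57 ± 0.32, limma adjusted p = 0.197, and 0.0114 with the block). MYC, listed with the ribosome biogenesis genes, was 11.2, 12.6 and 13.7 RPM in WT and 31.4, 50.3 and 49.2 RPM in Null.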
